A study of Mus musculus with 5 samples.

Results

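The distal downstream part of mouse chromosome 16, from 63500001 to 98315000 in mm9, was examined in 4C-seq of 3 libraries of mouse embryonic stem cells: WT, 45k del and 350k del. The stretch is defined by coordinates, not by a threshold on its values, and its 6963 windows of 5 kb were grouped into 70 bins of 500 kb, out of 191 bins on the chromosome. The last bin, at the chromosome end, held 63 windows instead of 100. WT is labelled as the 46C line. The other libraries carry boundary deletions labelled as 45 kb and 350 kb, made with CRISPR, in cells whose parent line the labels do not name. All 3 share the bait, and whether a deletion line is 1 clone, or has the deletion on both copies of the chromosome, is not given in the sources used here. The series holds 5 samples, and the 2 hybrid clones, with another bait and build, were not used. Each group is 1 library, so no difference below has a replicate check, and no test was made.

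4C-seq reads which parts of the genome were crosslinked near a single chosen site, the bait. Contacts are usually dense around the bait and thin out with distance along the chromosome. Beyond that, active and inactive chromatin each tend to contact chromatin of their own kind, and domains that replicate early or late in S phase largely follow this division. Domain boundaries limit contacts between neighbouring domains. The series as a whole asks about elements in cis that control replication, and the bait lies in the domain of Dppa2 and Dppa4, genes of pluripotent cells. The question here is what happens far from the boundary: which distant bins the bait contacts in all 3 libraries, and whether both deletions change the same ones.

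The bait primers are shown because every value below is a contact of this one site. The labels list the same pair for all 3 libraries, in lower case here as no base is singled out:
Forward: agcgtgaggtacatgaaagc
Reverse: cctgaagagctggtaccaaa
The extraction protocol in the labels names other primers, in a vector sequence, so the bait is known here only from the gap of 100 kb without windows, centred on 48605000. The stretch lies 14.895 to 49.71 Mb downstream of that centre, toward higher coordinates. Its limits are coordinates of the table and do not move with the bait position.

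The distal end of mouse chromosome 16 carries long neural genes and then the segment that matches human chromosome 21. In the RefSeq annotation of GRCm38.p6, Robo1 and Robo2, receptors that guide axons, are followed by Ncam2, a neural adhesion gene, then by App, the amyloid precursor gene, and later by Runx1, a blood transcription factor, Dyrk1a, a kinase gene, and Dscam, a neuronal recognition gene. That annotation has 16 protein-coding genes between Robo2 and App and 146 from App to the chromosome end. Its build differs from that of the contact table, so no bin was assigned to a gene. No sequence of mm9 was used.

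After undoing the running mean that the authors had applied, the table held 1714005 reads for WT, 1772088 for 45k del and 1465714 for 350k del. In the stretch these were 237666, 282843 and 229322 reads. Levels were rescaled to equal totals after leaving out the 330 kb of windows that start at 47900001, which are at 0 in 350k del, and for their last 45 kb in 45k del. A level is the mean signal of a 5-kb window per 1000000 of that total. The 95% Wilson intervals given below reflect counting error only: 4C reads carry no molecular identifiers, so they are not independent molecules.

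Both deletion libraries placed a larger share of their reads in the distal stretch. WT had 14.5% of its reads there (14.44 to 14.55%), 45k del 16.6% (16.55 to 16.66%) and 350k del 15.6% (15.59 to 15.70%). The log2 ratio to WT was 0.20 for 45k del and 0.11 for 350k del. WT was the lowest of the 3. The intervals do not overlap, but they treat reads as independent, which they are not, so they are too narrow to judge the order. The spread between libraries of 1 group is also unknown. When only signal over 2 Mb from the bait was used as the total, the ratios were smaller, at 0.12 and 0.048, since both deletion libraries also held less within 2 Mb of the bait (47.3% and 47.9% against 50.1%).

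The same distances on the other side of the bait, up to 33.71 Mb, did not show this order. There WT had 12.3% of its reads, 45k del 12.7% and 350k del 11.1%, with log2 ratios of 0.044 and -0.15. For 350k del the far upstream and far downstream shares thus lay on opposite sides of WT. The deleted windows lie upstream of the bait, between it and this far upstream part, and not between the bait and the stretch. Distances are those of the undeleted chromosome, so the upstream side is no untouched control for the stretch. Closer to the bait downstream, from 50.605 to 63.5 Mb, the log2 ratios were 0.054 for 45k del and -0.11 for 350k del. Upstream from 33.71 to 46.605 Mb they were -0.0049 and 0.25, so the ratio of 350k del was higher there than in the distal stretch.

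The larger shares came from fewer windows. WT had reads of its own in 3102 of the 6963 windows, or 44.5%. It was 2808 windows (40.3%) in 45k del and 2765 (39.7%) in 350k del. A window with reads held a mean of 76.6 reads in WT, 101 in 45k del and 82.9 in 350k del. WT was thus the broadest and thinnest of the 3 profiles. Upstream at the same distances WT was also the broadest, where 41.3%, 34.3% and 31.5% of windows had reads. These percentages take all 6727 windows from 0.075 Mb, although the first bin of the chromosome starts at 3 Mb. They compare the libraries with each other, and not that side with the stretch. The difference in breadth lay in weakly read windows: windows with at least 20 reads numbered 2383, 2542 and 2416, so that WT had the fewest. The order moved with the cut. With at least 5 reads they numbered 2950, 2715 and 2671, WT the most, and with at least 100 reads 758, 854 and 720, 350k del the fewest. These cuts are raw reads, and the libraries differ in depth. How the number of windows with reads bears on the shares was not tested.

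Level did not fall steadily with distance inside the stretch. In blocks of 5 Mb, WT had a mean level of 22.6 in the block nearest the bait, from 63.5 to 68.5 Mb. It was 19.87 and 19.96 in the next blocks, 15.2 from 78.5 to 83.5 Mb, 24.5 from 83.5 to 88.5 Mb, 23.0 from 88.5 to 93.5 Mb and 20.9 in the last. The block from 78.5 to 83.5 Mb was also the lowest in 45k del (17.2) and in 350k del (18.8), and the block from 83.5 to 88.5 Mb the highest in both (28.7 and 26.5). The signal was thus lowest at 78.5 to 83.5 Mb and highest just beyond it in every library. The low block also had the lowest percent of windows with reads, at 37.9%, 36.0% and 35.7% in WT, 45k del and 350k del. Whether its signal reflects fewer contacts or fewer readable windows was not tested. Over the 70 bins, Spearman's rho of level and distance was 0.076 in WT, 0.24 in 45k del and 0.063 in 350k del, given as a description, as the running mean lets adjacent bins share reads.

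In the nearest block the 3 libraries had almost the same level, 22.6, 22.1 and 22.2. The higher share of 45k del was in the other 6 blocks, with own-read log2 ratios to WT from 0.18 to 0.31 and the highest at 88.5 to 93.5 Mb. That of 350k del was in the blocks from 68.5 to 93.5 Mb, with ratios from 0.11 to 0.31 and the highest at 78.5 to 83.5 Mb. In the last block 350k del was at -0.013. The deletions therefore had their highest ratios in different blocks.

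**Figure D1:**
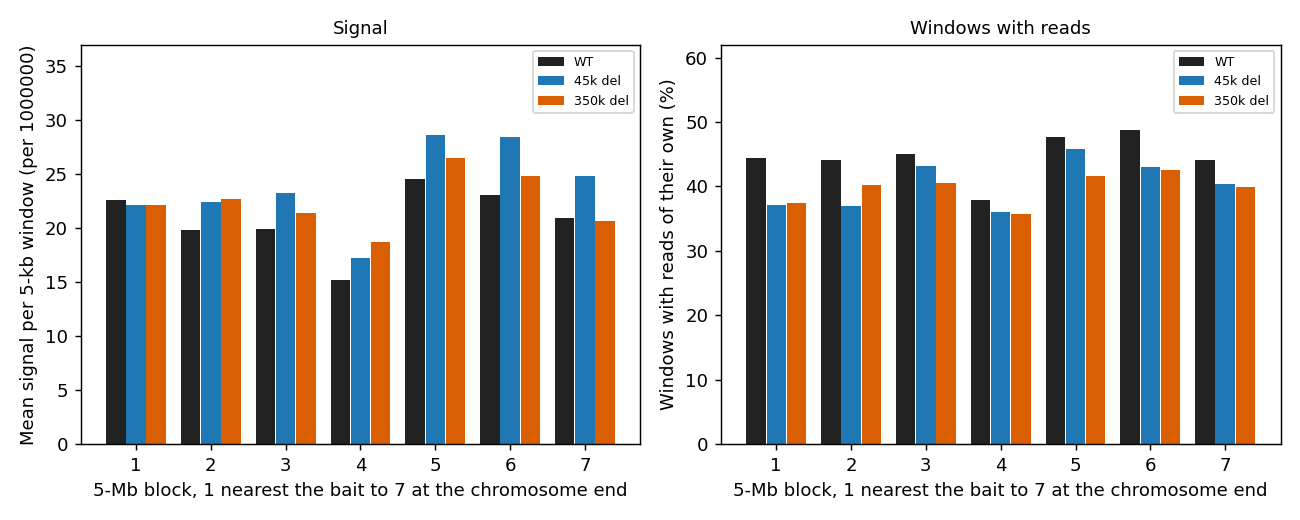
Mean rescaled signal per 5-kb window (left, per 1000000) and percent of windows with reads of their own (right) in 7 blocks of 5 Mb, from the one nearest the bait to the chromosome end, with bars for WT, 45k del and 350k del, 1 library each and so without error bars. Block 4 is the lowest and block 5 the highest in signal in all 3 libraries, and WT has the most windows with reads in every block.

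Among single bins, the WT level ran from 7.59 at 68.5 to 69.0 Mb to 42.4 at 84.5 to 85.0 Mb, with a median of 19.4. In 45k del it ran from 7.33 to 47.9 (median 21.8) and in 350k del from 7.56 to 51.5 (median 21.7). At the near edge, the first bin of the stretch had levels of 19.2, 14.7 and 20.7 in WT, 45k del and 350k del, and the bin just outside it 14.6, 20.2 and 14.6.

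A bin was counted as contacted in a library when its level was at least 1.5 times that library's median bin of the stretch. This held for 10 bins in WT, 12 in 45k del and 6 in 350k del, and 57 of the 70 bins passed in none. The bins that passed in all 3 libraries were the 4 that start at 84.5, 87.0, 87.5 and 90.0 Mb. Against the same median, 18.0% of all chromosome 16 bins passed in all 3 libraries, most of them closer to the bait. Upstream at the same distances, against the median there, 0 of 61 bins did, or 0.00%. That count also hangs on the cut. Against the medians of the stretch, the upstream bin at 30.5 to 31.0 Mb was at 1.61 in WT, 1.48 in 45k del and 1.90 in 350k del. It thus missed narrowly, and the counts of 4 and 0 are no measured difference between the sides.

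The bin at 84.5 to 85.0 Mb was the highest of the stretch in WT. Its level was 42.4 in WT, 43.2 in 45k del and 35.6 in 350k del, or 2.19, 1.98 and 1.64 times the median bin. Its own reads were 7152, 7739 and 5126, in 59, 58 and 54 of its 100 windows. Of the 72 windows read in any library, 42 were read in all 3, and these held 90.5%, 83.3% and 89.8% of the bin's reads. Most reads thus lay in windows read in all 3 libraries. The most-read window still differed, starting at 84830001 in WT, 84760001 in 45k del and 84785001 in 350k del. The signal was strongest in the later part of the bin, from 84.75 to 84.90 Mb.

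At 90.0 to 90.5 Mb the level was 34.0 in WT, 47.2 in 45k del and 51.5 in 350k del, or 1.76, 2.17 and 2.37 times the median bin. It was the highest bin of 350k del, and, relative to the median bins, the one whose lowest value over the 3 libraries was the highest. Its own reads were 5226, 7893 and 7484. The most-read window was the same in all 3 libraries, 90230001 to 90235000, with 602, 835 and 578 reads, or 11.5%, 10.6% and 7.72% of the bin. No single window therefore made this bin.

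The bins at 87.0 to 87.5 and 87.5 to 88.0 Mb are neighbours. The first had levels of 34.5, 38.00 and 34.6 in WT, 45k del and 350k del, within a log2 of 0.14 of WT. Its windows were also split into 2 alternating sets. For 45k del and 350k del, 1 set gave log2 ratios of 0.99 and 0.74, and the other -0.33 and -0.39. The small ratios of this bin are thus averages of opposite differences within it. The second bin had levels of 32.8, 42.8 and 32.9. In the first, the reads lay mainly from 87.35 to 87.50 Mb, where 45k del and 350k del had 795 and 703 own reads per 1000000 in the last 50 kb and WT 265. In the second, 350k del passed at 1.51 times its median bin, just inside the threshold. Running means reach across the shared edge of these 2 bins, so their levels are not independent. In each of the 2 bins the most-read window differed between all 3 libraries.

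Other bins missed in 1 library. In WT and 45k del alone, the bins at 64.5, 73.0, 85.0, 91.5 and 98.0 Mb (named by their start) passed, and in WT and 350k del alone the bin at 72.5 Mb. The bins at 64.5 and 91.5 Mb were just outside, at 1.47 and 1.49 times the median in 350k del. The bin at 78.0 Mb passed in both deletions and was at 1.200 in WT. The bins at 94.5 and 96.0 Mb passed in 45k del alone.

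**Figure D2:**
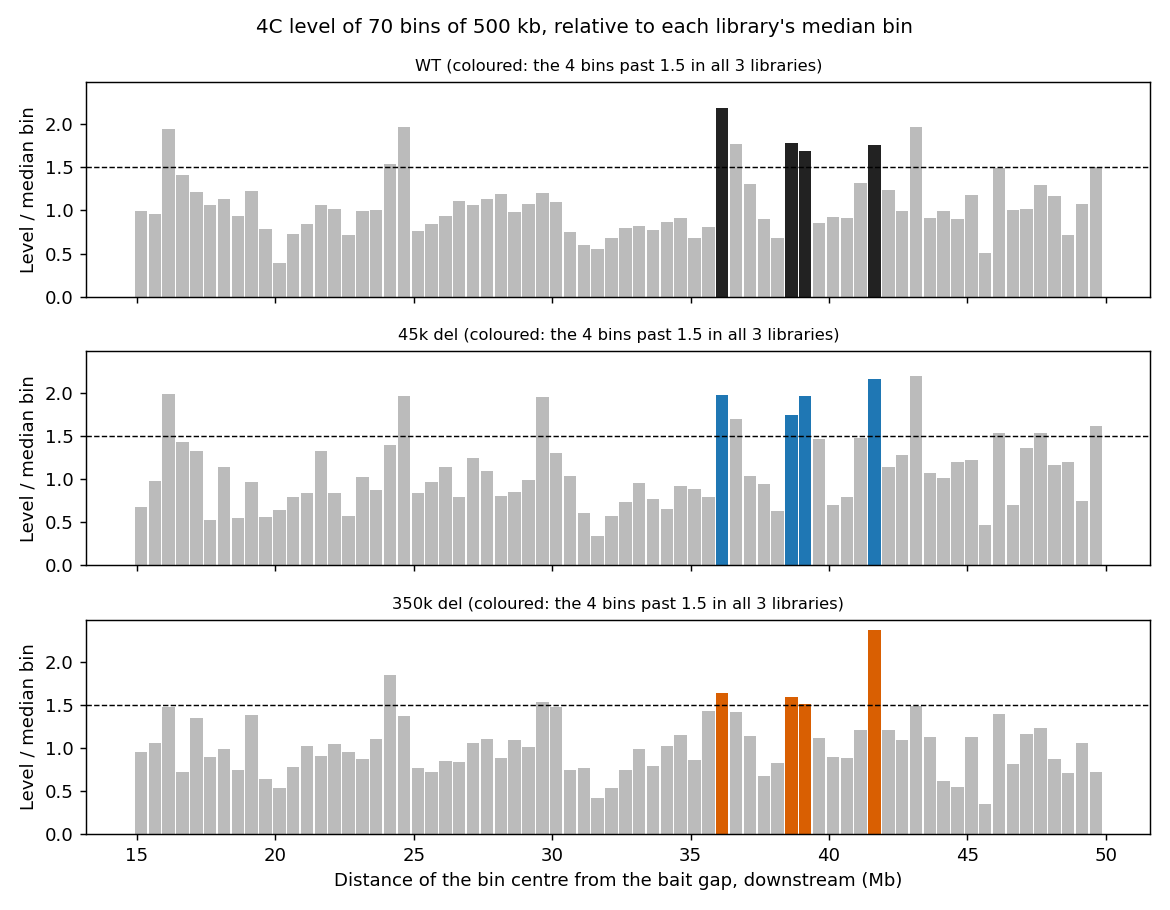
Level of each of the 70 bins divided by the median bin of the same library, against the distance of the bin centre from the bait gap, for WT, 45k del and 350k del. The dashed line is 1.5 times the median and the coloured bars are the 4 bins past it in all 3 libraries, between 36 and 42 Mb from the bait.

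The count of 4 depended on how the bins were read. It was 3 with own reads, 6 with the median of windows, 8 without the most-read window of each bin, 1 over windows read in all 3 libraries, 0 at 2 times the median and 0 by the number of windows with reads, which varies less between bins. The bin at 90.0 Mb passed in 5 of 8 such settings, those at 87.0 Mb in 4, at 84.5 Mb in 3 and at 87.5 Mb in 2. The bin at 64.5 Mb, outside the threshold in the main count, passed in 4 of 8. The list is thus best read as the top of a graded order of levels, not as a closed set.

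The order of bin levels was shared between libraries. Over 70 bins, Spearman's rho was 0.75 between WT and 45k del, 0.71 between WT and 350k del and 0.64 between 45k del and 350k del. The bins share restriction sites and mappable sequence across libraries, and this is a description. Of the 6963 windows, 1566 were read in all 3 libraries and held 66.2% of the WT reads, 67.3% of those of 45k del and 68.4% of those of 350k del. Another 2854 were read in none. Windows read in all 3 libraries also had more reads each, with a median of 62 in WT against 23 for windows read in WT alone.

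Changes were counted as log2 ratios to WT past 0.5 in size, in the 35 bins whose mean level over the 3 libraries was at or above the median of the stretch. In 45k del, 4 of the 35 bins were higher and 0 lower. Over the 112 chromosome 16 bins with at least that level, which include these 35, 10.7% were higher and 0.893% lower. In 350k del, 5 were higher and 2 lower, where 17.9% and 8.04% were over the chromosome. The stretch thus had about the share of bins past the threshold that the whole chromosome had, or a smaller one. Its median log2 was 0.20 for 45k del and 0.10 for 350k del in these bins, against 0.15 and 0.091 over the chromosome. Of the 35 bins, 32 were above WT in 45k del and 24 in 350k del. The mean level includes the deletion libraries, so a bin that is higher in a deletion is kept more easily. In the 35 bins of lower level, 19 were above WT in 45k del and 21 in 350k del. All 3 bins of the stretch that were lower past 0.5 in 45k del were among those. The counts of higher and lower bins thus depend partly on the choice of bins.

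**Figure D3:**
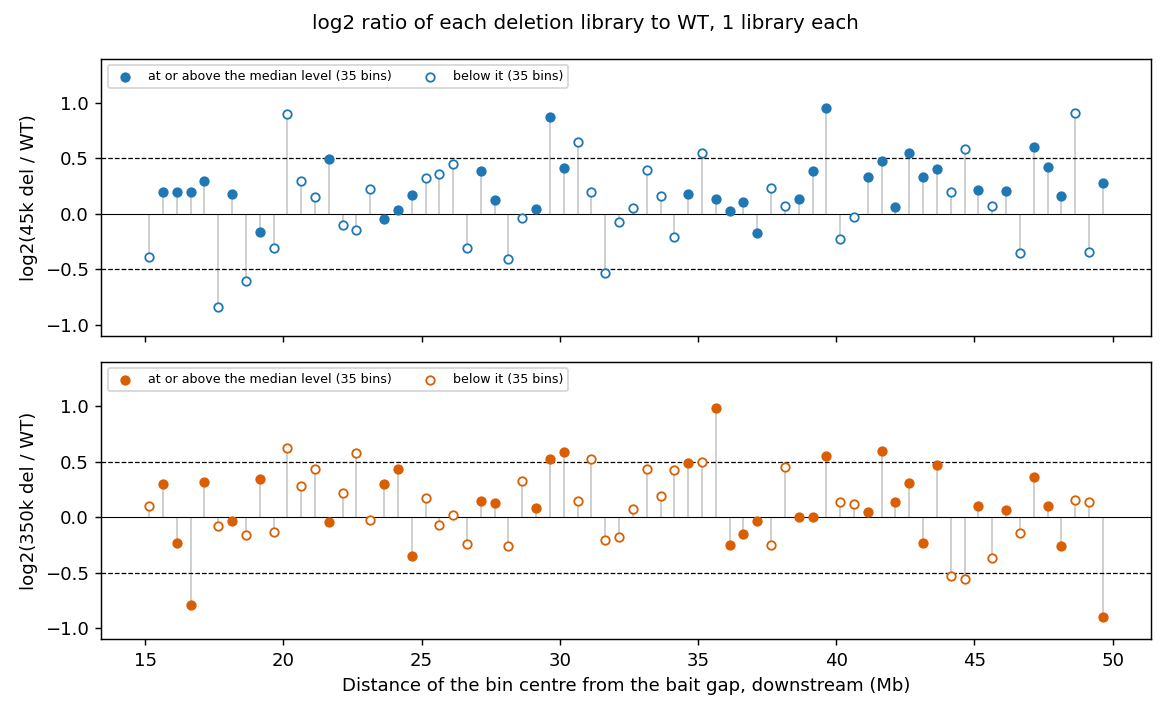
log2 ratio of 45k del (top) and 350k del (bottom) to WT for 70 bins, against the distance of the bin centre from the bait gap, with dashed lines at 0.5 and -0.5. Filled points are the 35 bins at or above the median level: 4 of them lie above 0.5 for 45k del, and 5 above and 2 below for 350k del.

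Both deletions were past 0.5 in the same direction in 2 of the 35 bins, both higher, at 78.0 to 78.5 and 88.0 to 88.5 Mb. Over the chromosome 4.46% of bins were higher in both. With the running mean undone the count was again 2, but with 90.0 Mb (0.54 and 0.68) in place of 88.0 Mb, which was at 0.495 in 350k del. The ratios share the WT library, so a low WT value alone raises both, and the count is no independent support for a common change. It was also 0 when the total was taken over the stretch or over windows more than 2 Mb from the bait, and 1 with bins shifted by 250 kb.

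At 78.0 to 78.5 Mb the level was 23.2 in WT, 42.5 in 45k del and 33.4 in 350k del, log2 ratios of 0.87 and 0.53. Its own reads were 3234, 7205 and 4612, which gave 1.10 and 0.67 after scaling. Windows with reads were 47, 47 and 50, so the libraries differed in reads per window and not in the number of windows. Both deletions were above WT in 8 of its 10 parts of 50 kb. Without the most-read window the ratios were 1.21 and 0.78. Other settings put 350k del under 0.5. It was 0.42 with the total over the stretch and 0.47 with the total over windows more than 2 Mb from the bait. Over windows read in all 3 libraries it was 0.45, in 1 of 2 alternating sets of windows 0.33, and by the number of windows with reads 0.29. The ratio of 45k del fell under 0.5 only by the number of windows with reads, at 0.18. The 2 deletion libraries were thus both above WT over most of this bin, and relative to the medians of the stretch it was a contacted bin in them alone.

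At 88.0 to 88.5 Mb the level was 16.5 in WT, 32.0 in 45k del and 24.2 in 350k del, log2 ratios of 0.96 and 0.55. Own reads were 2667, 4977 and 3360, which gave 0.85 and 0.495 after scaling, so that 350k del was just under the threshold. Here both deletions were above WT in 5 of the 10 parts, and the 50 kb from 88.15 to 88.20 Mb held 141, 820 and 609 own reads per 1000000. The difference was thus concentrated, and 19.0% of the reads of 350k del were in 1 window. Without the most-read window the ratios were 0.77 and 0.20. This bin adjoins the contacted pair at 87.0 to 88.0 Mb.

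**Figure D4:**
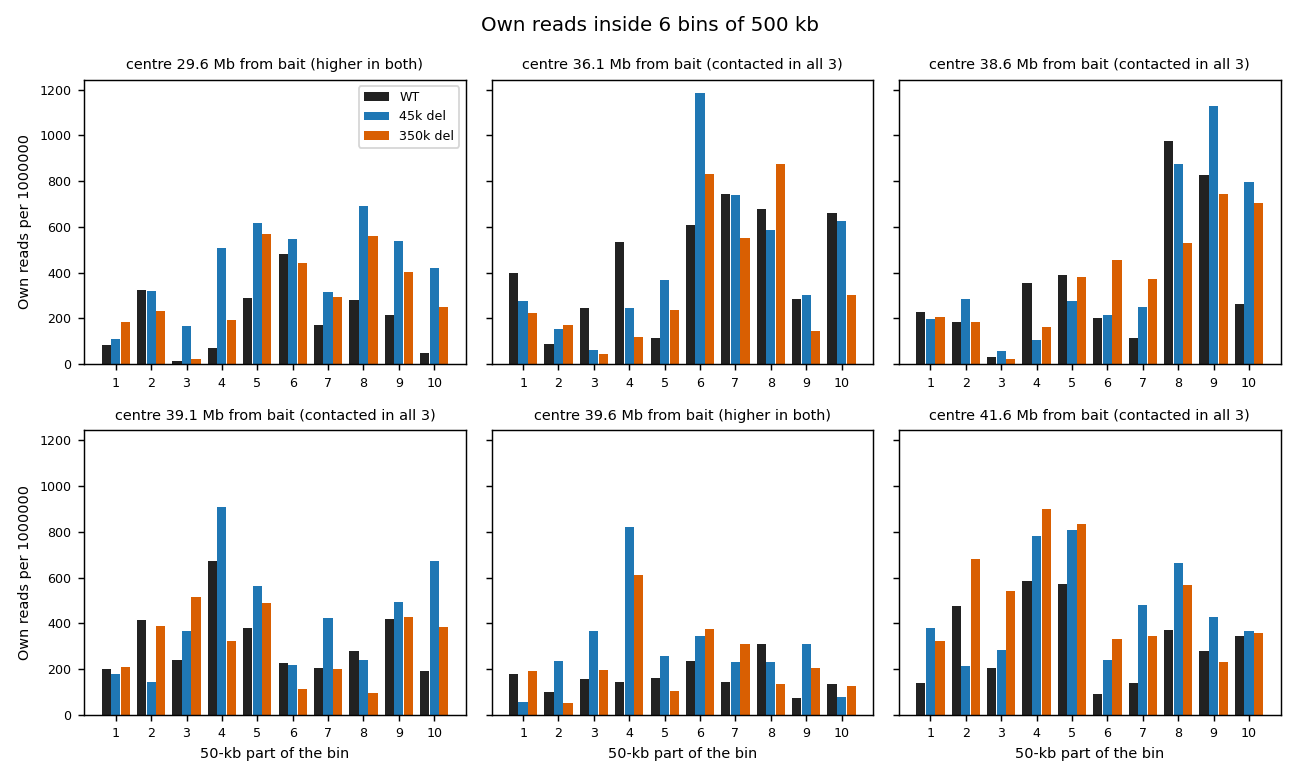
Own reads per 1000000 in the 10 parts of 50 kb of 6 bins: the 4 contacted in all 3 libraries and the 2 higher in both deletions, titled by the distance of their centre from the bait gap, with bars for WT, 45k del and 350k del. At 29.6 Mb both deletions exceed WT in 8 of 10 parts, and at 39.6 Mb the fourth part holds the tallest bars of both.

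The other bins were past the threshold in 1 deletion. For 45k del, the bin at 95.5 to 96.0 Mb had levels of 19.6 in WT and 29.8 in 45k del (log2 0.60), with 25.2 in 350k del (log2 0.36). The remaining one of the 4, at 91.0 to 91.5 Mb, which was chosen after its values were seen, was at 0.55, with 0.30 in 350k del. In both bins 350k del lay between the others.

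For 350k del, the highest ratio was at 84.0 to 84.5 Mb, just before the contacted bin at 84.5 Mb. The level there was 15.8 in WT, 17.3 in 45k del and 31.1 in 350k del, a log2 of 0.98 against 0.14 in 45k del. Of its 4470 own reads in 350k del, 19.1% were in 1 window, and the log2 without the most-read window was 0.79. It was 0.16 in 1 of the 2 alternating sets of windows of the bin and 1.59 in the other. From 84.0 to 85.0 Mb 350k del was thus nearly level over both bins, at 31.1 and 35.6, where WT was at 15.8 and 42.4 and 45k del at 17.3 and 43.2. The bin at 90.0 Mb, contacted in all 3 libraries, was at 0.60 in 350k del and at 0.47, just under the threshold, in 45k del. The bin at 78.5 to 79.0 Mb was at 0.59 and 0.41.

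The lower bins of 350k del were at 65.0 to 65.5 Mb and at the chromosome end, 98.0 to 98.315 Mb. At 65.0 Mb the level was 27.3 in WT, 31.2 in 45k del and 15.8 in 350k del, a log2 of -0.79 for 350k del and 0.19 for 45k del. Own reads were 4375, 5108 and 2255, in 41, 44 and 30 windows. The log2 of 350k del was -1.42 in 1 of the 2 alternating sets of windows and -0.19 in the other. Over windows read in all 3 libraries it was -0.46. At 98.0 Mb the level was 29.1, 35.2 and 15.6, a log2 of -0.90 and 0.28, with own reads of 3309, 3972 and 1462. There the 2 sets gave -1.55 and -0.45 for 350k del. For 45k del they gave -0.31 and 0.76. In both bins 350k del was the lowest and 45k del the highest of the 3. The next lowest ratio of the 35 bins, at 73.0 to 73.5 Mb, was -0.35, in a bin with levels of 38.03, 42.81 and 29.75.

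In 45k del the lowest ratios of the 35 bins were -0.17, -0.16 and -0.046, in the bins that start at 85.5, 67.5 and 72.0 Mb. Of the 35 bins of lower level, 11 were past 0.5 in at least 1 deletion. They include 68.5 to 69.0 Mb, the lowest bin of WT, with levels of 7.59, 14.1 and 11.7 (log2 0.90 and 0.62), and 83.5 to 84.0 Mb (0.55 and 0.501), the 2 low bins that were higher past 0.5 in both. They also include 93.0 to 93.5 Mb, where the deletions were past the threshold in opposite directions, at 0.59 and -0.56, and 66.0 to 66.5 Mb, the lowest ratio of 45k del at -0.84, with -0.080 in 350k del. Over all 70 bins, 9 were higher and 3 lower in 45k del, and 9 and 4 in 350k del. All chromosome 16 bins gave 10.6% and 8.47%, and 13.8% and 14.3%. In the same direction in both, 4 of the 70 bins were higher and 0 lower, where all chromosome 16 bins gave 4.23% each way, and 1 bin was past the threshold in opposite directions, against 1.06%.

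The direct contrast of the deletions does not use WT. In the 35 bins, 350k del was higher than 45k del past 0.5 in 2 and lower in 5, against 8.04% and 12.5% over the chromosome, with a median log2 of -0.21. Over all 70 bins the SD of the log2 ratio was 0.35 for 45k del against WT, 0.35 for 350k del against WT and 0.43 between the deletions. The 2 deletion libraries therefore differed from each other at least as much as each did from WT. By order within a bin, WT was the highest or lowest of the 3 in 44 of 70 bins, 45k del in 53 and 350k del in 43. WT was the lowest in 35 bins and the highest in 9.

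How far a bin's ratio repeats within its own windows was measured by splitting each bin into 2 alternating sets of windows. Over 70 bins, Spearman's rho between the sets was 0.16 for the log2 ratio of 45k del to WT and 0.077 for 350k del. The levels themselves gave 0.52 in WT, 0.68 in 45k del and 0.47 in 350k del. The median difference between the sets was 0.34 in the log2 ratio of 45k del and 0.46 in that of 350k del, close to the threshold of 0.5. Of the 4 and 7 bins past the threshold, all 4 and all 7 kept their direction in both sets, and 2 and 1 were past it in both. These bins were picked by their ratio over both sets together, which favours a shared direction. By rho, the order of bins by level was repeated between sets better than the order by ratio to WT. The sets share a library, and neighbouring windows can share a restriction fragment.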

How the data were processed

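The authors deposited coverage signal over 5 kb windows in mm9, smoothed over 30 windows (150 kb) and scaled to nearly equal totals, per the file name and its values. Bowtie2 is named in the submitters' processing notes, and its version is not given in the sources used here. Cells were fixed and chromatin was cut with HindIII and then DpnII, per the labels' protocols. The table has no chromosome column. It was read as chromosome 16 because its last reads end at 98315000.

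Each library's signal is whole multiples of 1 step, within 0.01. The running mean was undone from the chromosome end after leaving out the deleted windows at 0 (45 kb and 330 kb), which gave 0 windows below 0. Signal was rescaled to equal totals without the 330 kb interval, averaged in 500 kb bins, and compared as log2 ratios without a pseudocount. Named bins are those contacted in all 3 libraries (level at least 1.5 times the median bin), those past a log2 of 0.5 in both deletions, and the 3 highest and 3 lowest ratios of each deletion. Undoing the running mean and the bin ratios from own reads were tested on reads simulated from the WT profile with known folds. Those reads were drawn as independent counts, and only the 350 kb deletion was simulated. The contact rule, the level floor and the counts from smoothed signal were not part of that test. Scripts ran in Python 3.11.15 with pandas 2.3.3, numpy 2.4.6, matplotlib 3.10.9 and scipy 1.17.1. The stretch, bins and thresholds were chosen with earlier results of these data known.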

Additional observations from a re-analysis of the deposited data

Results flagged for a closer look

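In 2 named bins the deletions lay on opposite sides of WT with 1 of them past a log2 of 0.5, and with 1 library each this was not tested. The log2 ratio of 350k del minus that of 45k del was -0.98 at 65.0 to 65.5 Mb. It was -1.18 at 98.0 to 98.315 Mb, the partial bin at the chromosome end. Both differences varied within the bin. In the 2 alternating sets of windows, 350k del was at -1.42 and -0.19 against WT in the first bin. In the second it was at -1.55 and -0.45. In 1 of these sets 45k del was also below WT in the second bin, at -0.31.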

How the results depend on the processing

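No paired analysis was possible because each group has 1 library. Counts are given in the order contacted in all 3 libraries, 45k del higher, 350k del higher, 350k del lower, both in the same direction, 350k del above 45k del and below it, which were 4, 4, 5, 2, 2, 2 and 5. By the number of windows with reads all 7 were 0. With bins of 250 kb they were 11, 17, 15, 6, 7, 6 and 15. Without the level floor the last 6 were 9, 9, 4, 4, 5 and 8, with 3 bins lower in 45k del. Past a log2 of 1 they were 0, 0, 0, 0, 0 and 1. With bins of 1 Mb, 350k del gave 0 higher and 0 lower, both 0, and 0 above and 1 below 45k del. With bins shifted by 250 kb, 350k del gave 1 higher and 0 lower, and both 1. At 2 times the median, 0 bins were contacted.

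With the running mean undone, 45k del was higher in 7. With the median of windows, both gave 1, and 10 were below 45k del. With the total over the stretch, 45k del was higher in 2, 350k del in 1, both in 0, and 2 were below 45k del. With the total over windows more than 2 Mb from the bait, 350k del was higher in 3 and both in 0, and the log2 share ratios were 0.12 and 0.048. With the deleted windows in the total, 350k del was higher in 8 and below 45k del in 3, and the share ratios were 0.204 and 0.18.

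Settings chosen after seeing the data used own reads. Without the most-read window, 8 bins were contacted, 350k del was higher in 3 and above 45k del in 0. Over windows read in all 3 libraries, 1 was contacted, 45k del was higher in 8 and 350k del above 45k del in 1. In 1 of the 2 alternating sets of windows, 7 were contacted, 45k del was higher in 10, 350k del in 8, both in 4, and 10 were below 45k del. In the other set, 45k del was higher in 7 and lower in 1, 350k del lower in 1, both in 0, and 4 were above 45k del.

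The ratios past the threshold in named bins, 10 in all, were recomputed in the 10 settings that keep the bins and can move a ratio. They kept their direction there apart from 2 values by the number of windows with reads: -0.051 at 88.0 Mb and 0.0010 at 98.0 Mb, both for 350k del. Of 100 such values 69 stayed past the threshold and 29 fell under it. The causes of these shifts were not tested. A bin held 1172 to 8356 reads, which are not independent molecules, and the spread between libraries of 1 group is unknown.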
